A study of Homo sapiens with 9 samples.

Results

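The first hours after delivery of a control miRNA mimic were examined in MP41, a human uveal melanoma cell line. For each of the 14839 genes in the table, which are all genes of the series, the change was the mean of the log2 levels at 6 h and 12 h after transfection of miR-CTR minus the level in untransfected cells at 0 h. The comparison used 3 of the 9 RNA-seq libraries, each with 1 library and no replicate per time: untransfected cells harvested before transfection (0 h), and cells transfected with miR-CTR at 66 nM in Lipofectamine RNAiMAX for 6 h or 12 h. The 0 h library carries the control mimic's treatment label, whereas the design text says that its cells were taken before transfection, and it was used here as untransfected. Cells of all groups were grown in RPMI-1640 medium with serum. The other 6 libraries (miR-CTR at 24 h and 48 h, and miR-16 at the same dose at 6, 12, 24, and 48 h) are given only where they show how the early changes went on. There was no mock-transfected library, so the mimic, the reagent, the handling, and the time in culture cannot be told apart, and every change from 0 h shares the single 0 h library and its errors.

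A miRNA mimic is a short RNA duplex, one strand of which is loaded into an Argonaute protein. The loaded strand pairs with mRNAs, mostly in the 3′UTR, through its seed (bases 2 to 8 from the 5′ end), and the paired mRNA is deadenylated, decayed, and less translated. A control mimic is designed to lack physiological targets, but any loaded strand has a seed. Double-stranded RNA in the cytoplasm or endosome can also be sensed by RIG-I, MDA5, PKR, or TLR3 and switch on interferon-stimulated genes, and cationic lipid reagents add lipid and pass through endosomes.

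The control sequence and miR-16 are shown because the falling genes were searched for matches to their seeds, which stand in capitals and were not alike. The control sequence was the one listed by the study for its biotinylated control. Its row is labelled biotinylated miR-16 and the row of miR-CTR holds the miR-16 sequence, so the rows were taken as swapped, and the transfected miR-CTR was taken to have the same sequence.
control: uUGUACUAcacaaaaguacug
miR-16: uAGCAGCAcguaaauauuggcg
A 3′UTR match was TAGTACA (7mer-m8), TAGTACAA (8mer, the same with an A opposite position 1), or AGTACAA (7mer-A1), read on the mRNA strand, in the longest annotated 3′UTR of the gene. The windows below come from 5 of the genes with the largest falls and are drawn from GENCODE 29 transcripts (GRCh38), 5′ to 3′ on the mRNA strand, with the match in capitals. They lie at chr7:12232240-12232261 and chr7:12234928-12234949 (plus strand, TMEM106B), chr13:25248084-25248105 (minus strand, MTMR6), chr6:38676368-38676389 (minus strand, GLO1), chr4:99879245-99879265 (minus strand, LAMTOR3), and chr6:131949029-131949049 (minus strand, CTGF).
TMEM106B, first site: tacttcccctaTAGTACAAtaa
TMEM106B, second site: tacttactaagTAGTACAActg
MTMR6: aaaagagattcTAGTACAAagt
GLO1: ctagaagtcttTAGTACAAaac
LAMTOR3: tttttgaaaggTAGTACAgaa
CTGF: tggaactacatTAGTACAcag

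Levels are the deposited log2 values of size-factor-normalized reads plus 1, and every change below is a difference of these log2 values. Reads recovered from the values totalled 22066133 for untransfected cells, 24152275 for miR-CTR 6 h, and 24091138 for miR-CTR 12 h, and ran from 20313637 to 27399253 over the 9 libraries. Without replicates no test was possible. A gene is said to have risen or fallen when its early change was past 0.5 in either direction, the limit of the study, and the standard error (SE) given with a change covers counting error only. The markers of the labelled cell line were present, since 20 of 21 melanocyte lineage genes were in the table at a median 0 h level of 12.18. Of the markers of other cell types, 1 of 8 keratinocyte, 1 of 8 immune, 0 of 7 endothelial, and 5 of 8 fibroblast genes were listed. The summed level of the 5 fibroblast genes was 8.98 in untransfected cells and 9.14 and 9.24 in the early miR-CTR libraries, with a median change of 0.235, and FAP, one of them, had 5, 13, and 17 reads and changed by 1.295 (SE 0.595). The part of these genes in the rises of matrix genes below (HAS2, FN1, and SNAI2) was not tested.

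The early response was small for most genes. The median change was 0.005, the middle 50% of genes lay between −0.12 and 0.13, and 76.2% of genes stayed within 0.25 of the 0 h level. A rise was seen for 457 genes (3.08%) and a fall for 483 (3.25%). At both 6 h and 12 h, 240 genes (1.62%) were past 0.5 upward and 243 (1.64%) downward.

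Rises and falls were not alike in level. Of the 457 rises, 380 were among the 25% of genes with the lowest mean level, where the rises had a median of 17 reads at 0 h. Of the 483 falls, 321 were in that lowest 25%, with a median of 39 reads at 0 h. Thus 10.2% of the genes in the lowest 25% rose and 8.7% fell, against 0.69% and 1.46% of the genes above it. Above it stood 77 rises and 162 falls, and the 95% counting interval of every one of them excluded 0. At the small counting error there, a change past 0.5 does so nearly by selection, so this adds no support to the calls. Among all rises, 282 had a counting interval that excluded 0, as did 378 of all falls. In the lowest 25% the median counting SE was 0.272, against 0.058 in the other genes, so a change of 0.5 in a single low gene was near the size of its counting error.

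**Figure D1:**
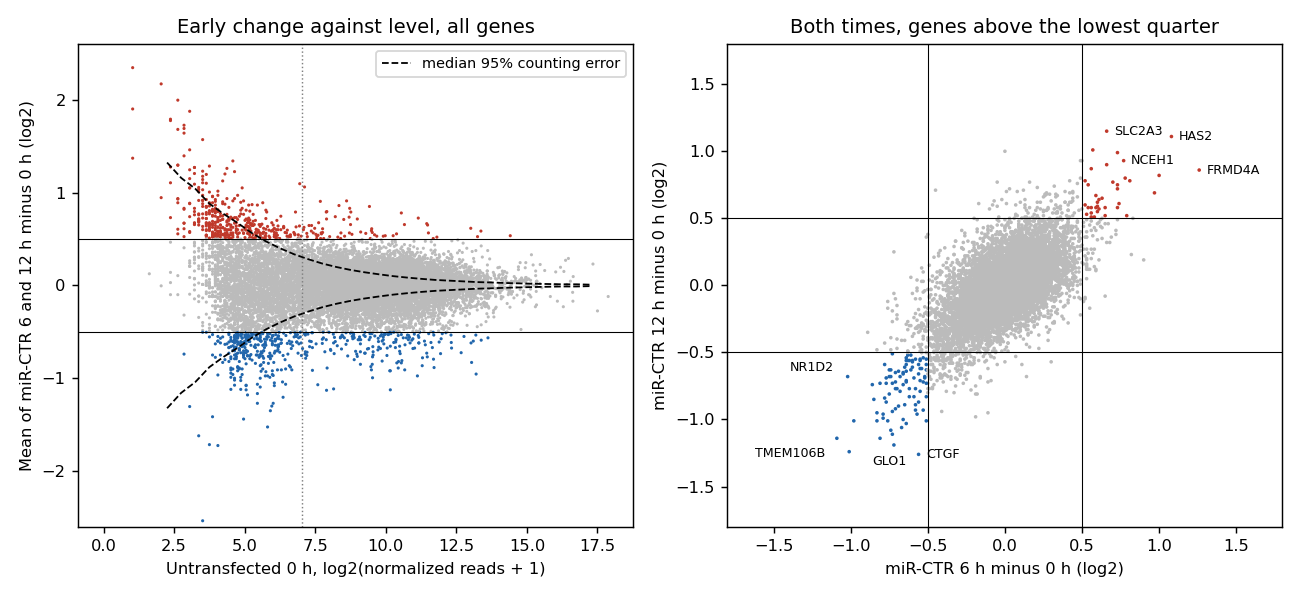
Left, the mean change at 6 and 12 h of miR-CTR from untransfected cells against the 0 h level, 1 point per gene, red for the 457 rises and blue for the 483 falls, with the limit of 0.5 (solid), the median 95% counting error (dashed), and the level of 7.02 that bounds the lowest 25% of genes by their mean over the 9 libraries (dotted). Right, the change at 12 h against that at 6 h for the genes above the lowest 25%, coloured where both times were past 0.5. Many called genes lie at low levels where the counting error reaches the limit, and falls outnumber rises among the higher genes.

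Among genes above the lowest 25% that were past 0.5 at both times, the 12 largest falls ranged from −0.885 to −1.125. TMEM106B, a lysosomal membrane protein, stood at 10.16 in untransfected cells, 9.15 at 6 h, and 8.92 at 12 h, a change of −1.125 (SE 0.062). With miR-16 its level was 9.82 at 6 h and 10.16 at 12 h, so the later of these libraries was level with untransfected cells. MTMR6, a phosphatase of phosphoinositides, went from 11.12 to 10.31 and 9.98 (−0.975, SE 0.043), and was at 10.87 and 11.02 with miR-16. GLO1, which detoxifies methylglyoxal, was the most abundant of these genes, with 9047 reads at 0 h. Its level went from 13.20 to 12.48 and 12.01 (−0.955, SE 0.021), against 12.93 and 13.11 with miR-16. In all 3 genes the 12 h miR-CTR library was the lower of the pair, and each miR-CTR library was below the miR-16 library of its time.

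LAMTOR3, a subunit of the Ragulator complex that recruits mTORC1 to lysosomes, went from 10.16 to 9.43 and 9.05 (−0.92, SE 0.060). CTGF, a secreted matricellular protein and target of YAP, went from 10.67 to 10.11 and 9.41 (−0.91, SE 0.050). Its level with miR-CTR went on down to 8.34 at 24 h and 7.02 at 48 h, while the 4 miR-16 libraries stayed between 10.29 and 10.70. FAM3C, a secreted cytokine-like protein, changed by −0.89 (10.44 to 9.61 and 9.49). FLRT2, an adhesion and guidance protein of the cell surface, changed by −0.885 (11.71 to 10.95 and 10.70). With miR-16 the early changes were −0.26 for LAMTOR3, −0.31 for FAM3C, and −0.515 for FLRT2, the last also past the limit.

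BMI1 and ZNF367 also fell with either mimic, by −0.815 and −0.765 with miR-16. BMI1, a Polycomb repressor subunit, went from 10.14 to 9.31 and 9.13 after miR-CTR, whereas after miR-16 it read 9.31 and 9.34. ZNF367, a zinc finger transcription factor, went from 9.49 to 8.75 and 8.41 after miR-CTR, whereas after miR-16 it read 8.78 and 8.67. The reads of BMI1 can be shared with a read-through transcript from its neighbour. The other 3 of the 12 largest falls, RP11-290D2.6, RP11-145M9.4, and RP11-332M2.1, are listed under clone names that were not matched to the annotation. They changed by −1.115, −0.995, and −0.89, and with miR-16 by −0.475, −0.515, and −0.71.

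**Figure D2:**
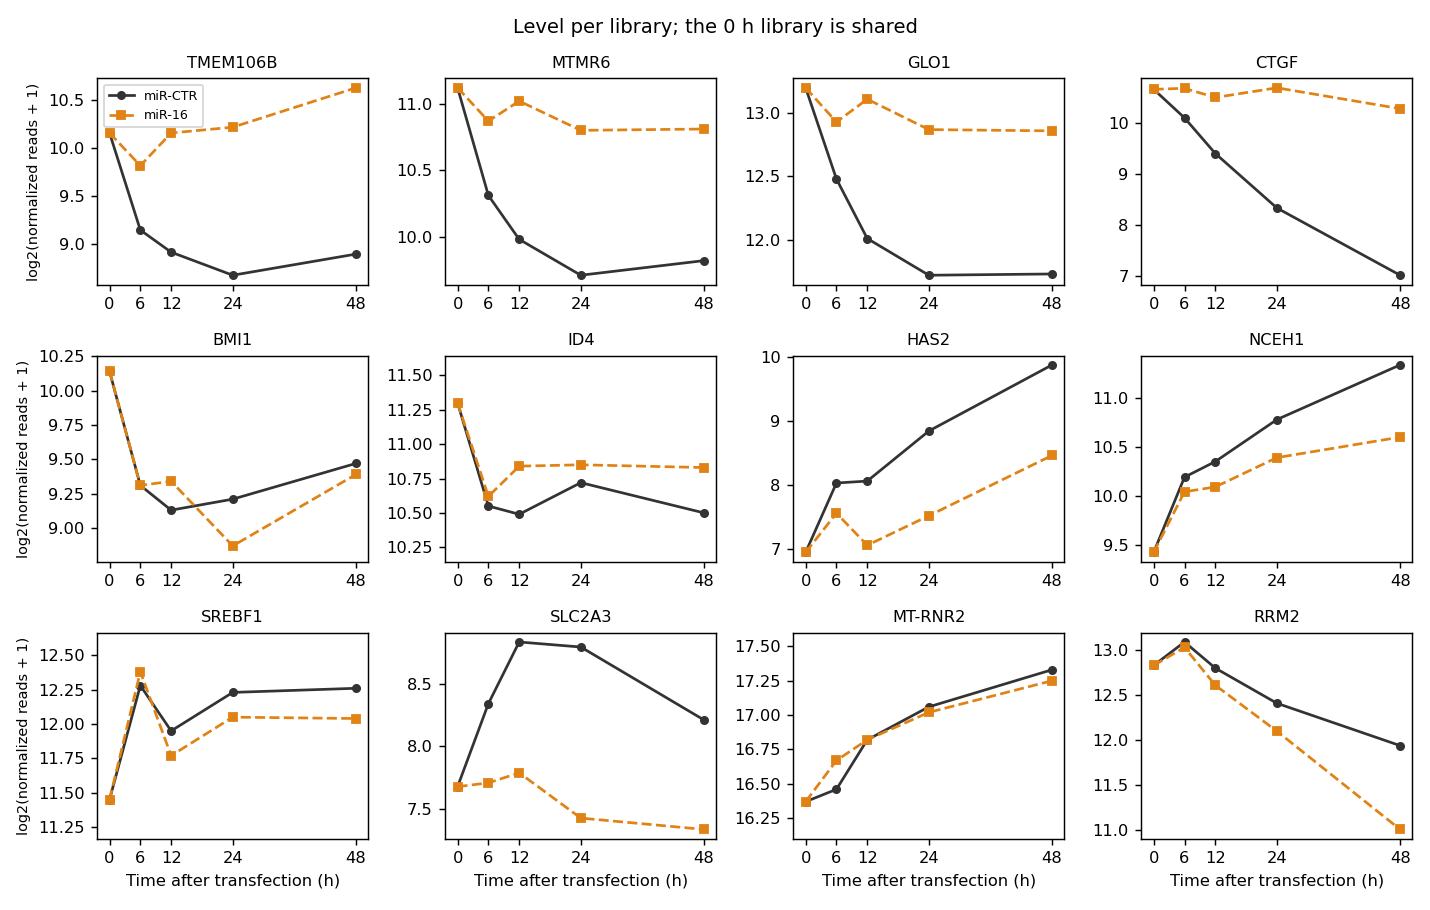
Level (log2 of normalized reads plus 1) of 12 genes in each library against hours after transfection, with miR-CTR as circles and miR-16 as squares; the 0 h point is the same library for both, and there are no replicates. TMEM106B, MTMR6, GLO1, and CTGF fall with miR-CTR and stay near the 0 h level with miR-16, whereas BMI1, NCEH1, SREBF1, and MT-RNR2 move the same way in both series.

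The 12 largest rises, chosen in the same way above the lowest 25%, ranged from 0.74 to 1.09, and larger rises occurred among genes of low counts. HAS2, a hyaluronan synthase, stood at 6.95 at 0 h and at 8.03 and 8.06 at 6 h and 12 h (1.09, SE 0.145), and reached 9.87 at 48 h. With miR-16 it was 7.56 and 7.06 at the early times. FRMD4A, a scaffold of cell polarity, went from 7.12 to 8.38 and 7.98, and to 8.13 and 7.64 with miR-16. SLC2A3, the glucose transporter GLUT3, went from 7.68 to 8.34 and 8.83. SLC2A3 showed almost no change with miR-16, with levels of 7.71 and 7.79. RNF43, a ubiquitin ligase that removes Wnt receptors, likewise went from 7.89 to 8.46 and 8.90 with miR-CTR and was at 8.06 in both early miR-16 libraries.

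A further group of rises was also seen with miR-16, with a smaller early change in each gene. NCEH1, a hydrolase of cholesterol esters, went from 9.42 to 10.19 and 10.35 after miR-CTR, whereas after miR-16 it read 10.04 and 10.09. SLC5A4, a glucose-sensing member of the sodium/glucose cotransporter family, went from 10.55 to 11.21 and 11.45, and to 11.17 and 11.38 with miR-16. IL16, a chemoattractant cytokine, changed by 0.86 and by 0.695 with miR-16, and PKNOX2, a homeobox factor, by 0.795 and 0.675. CYP1A1, a target of the aryl hydrocarbon receptor, was transient: 8.72 at 0 h, 9.69 and 9.41 at 6 h and 12 h, and 7.81 and 6.34 at 24 h and 48 h. The early change of CYP1A1 was 0.83, and 0.77 with miR-16. FN1, which encodes fibronectin, changed by 0.74 and by 0.61 with miR-16, and SNAI2, a repressor of epithelial genes, by 0.79 and 0.505. At 12 h of miR-16 alone FN1 and SNAI2 were under the limit (0.45 and 0.41). RPS18P12, a processed pseudogene outside this group, rose with miR-CTR (0.91) but not with miR-16 (−0.685). Its reads cannot be told apart from those of RPS18 with certainty, and its 9 libraries ranged from 7.20 to 10.39.

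At the limit itself, HES2 and FBXO48 (both 0.505) were just inside among the rises and GGT3P and CTA-445C9.14 (both 0.50) just outside. FSTL1 and RAP2B (both −0.505) were just inside among the falls and AC006538.1 and RP3-412A9.16 (both −0.50) just outside. All but RAP2B (1316 reads) and FBXO48 had under 40 reads at 0 h, and the 2 times of FSTL1 differed in sign (−1.11 and 0.10).

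Matches to the control seed were common among the falls. Above the lowest 25% of genes, 142 of the 162 falls had an annotated 3′UTR, and 79 of them (55.6%) held at least 1 match, against 1499 of all 9838 such genes (15.2%). An 8mer was present in 19 of the falls (13.4%), against 228 of all (2.3%). Of the 62 rises with a 3′UTR, 4 (6.5%) held a match. Matches to the miR-16 seed were found in 47 of the 142 falls (33.1%) and in 24 of the 62 rises (38.7%), against 30.1% of all. Of the 12 largest rises above the lowest 25%, 11 had a 3′UTR, and 2 of these, HAS2 and FN1, held a control match. A miR-16 match was held by 5: HAS2, SLC2A3 (an 8mer), IL16, SNAI2, and RNF43 (2 matches). With miR-16 these 5 changed by 0.36, 0.07, 0.695, 0.505, and 0.17. Of the 12 largest falls above the lowest 25%, 9 had a 3′UTR and 8 of these held a control match, BMI1 being the exception. Without the filter on level, 109 of the 282 falls with a 3′UTR (38.7%) held a control match, against 14.7% of all genes with a 3′UTR. Of the 15 such falls past 1 in size, of which 1 was above the lowest 25%, 2 (13.3%) held a control match. MTMR6 had 7 matches, LAMTOR3 and FLRT2 had 3 each, and TMEM106B had 2, both 8mers.

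Over all 11572 protein-coding genes with a 3′UTR, the 1706 with a control match had a median early change of −0.09 (interval of the median −0.105 to −0.085), and the 9866 without had 0.015. Genes that fell made up 6.39% of the former and 1.75% of the latter. The median was −0.115 for the 259 genes whose best match was an 8mer, and −0.16 for the 316 genes with 2 or more matches, of which 12.66% fell. For genes with a match, the medians of the successive miR-CTR libraries were −0.08, −0.10, −0.12, and −0.14. For the 3381 genes with a miR-16 match the early median with miR-CTR was 0.005, the same as for all genes.

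When genes were put into 5 bins by 3′UTR length or by A and T content, the median was lower with a match than without in every bin, by amounts that differed. In the 20% of 3′UTRs richest in A and T, genes with a match had a median of −0.18 and those without −0.03. In the 20% poorest in A and T these were −0.06 and 0.025. In the 20% of longest 3′UTRs the medians were −0.095 with a match and 0.01 without. The miR-16 libraries, which share the 0 h library, had smaller values of the same sign, with an early median of −0.045 for genes with a control match and 0.01 without. Taken without the 0 h library, the early miR-CTR level minus the early miR-16 level had a median of −0.07 for the 937 genes with a control match alone, 0.045 for the 2612 with a miR-16 match alone, −0.01 for the 769 with both, and −0.005 for the 7254 with neither.

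**Figure D3:**
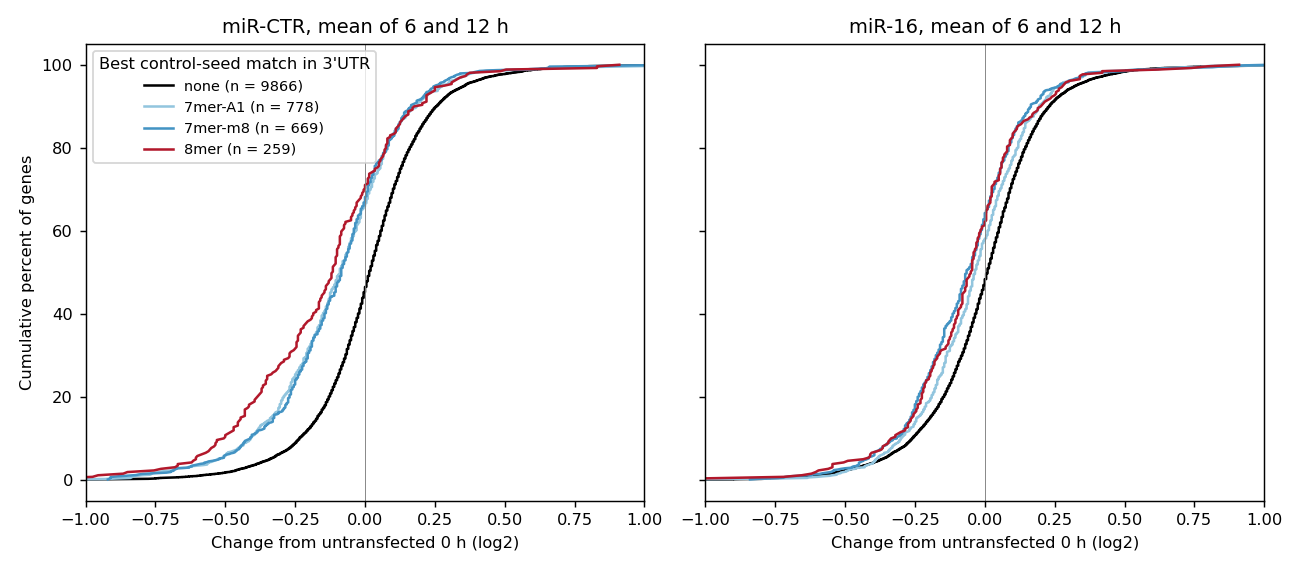
Cumulative percent of protein-coding genes against the early change from untransfected cells (log2) for miR-CTR (left) and miR-16 (right), by the best match to the control seed in the 3′UTR (none, 9866 genes; 7mer-A1, 778; 7mer-m8, 669; 8mer, 259). The curves of genes with a match lie left of the black curve in both panels, by more with miR-CTR, where the 8mer curve lies furthest left below the median.

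The later libraries took no part in calling the falls, though their values enter the mean level by which the lowest 25% was left out, and they gave a further reading. Among the 79 falls with a control match, the level with miR-CTR was below that with miR-16 for 74 genes (93.7%) at 24 h and 73 (92.4%) at 48 h, with median differences of −0.54 and −0.59. Among the 63 falls without a match it was below for 39 (61.9%) and 48 (76.2%), with medians of −0.13 and −0.29. Over all genes above the lowest 25%, the shares at 24 h were 52.2% with a match and 44.9% without. At 48 h they were 56.6% and 44.1%, so falls without a match were also above the share of all genes at both times. With the lowest 25% taken from the mean of the 0 h, 6 h, and 12 h libraries alone, a choice made after seeing the data, the shares of the falls at 24 h were 94.9% (75 of 79) with a match and 61.5% (40 of 65) without.

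Falls and rises also stood apart in gene structure, given here as medians with no test. The 142 falls had a median 3′UTR of 2534 bases and 64.8% A or T, and a longest transcript with 5 exons and 40.0% G or C. For all genes above the lowest 25% these medians were 1474 bases, 57.7%, 9 exons, and 47.8%, and for the 62 rises 2147 bases, 56.2%, 10 exons, and 50.6%. The pentamer ATTTA, a core of AU-rich decay elements, occurred 2.95 times per kilobase of 3′UTR in the falls and 1.73 times in all genes. The falls without a control match were also rich in A and T (64.0%) and had a median of 4 exons.

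The medians of the called genes kept their direction later on. The 77 rises above the lowest 25% had medians of 0.60, 0.62, 0.78, and 0.81 at 6, 12, 24, and 48 h of miR-CTR, and 0.52, 0.40, 0.53, and 0.51 with miR-16. For the 162 falls the miR-CTR medians were −0.57, −0.68, −0.75, and −0.82, whereas the miR-16 medians were −0.41, −0.27, −0.40, and −0.30. A chance deviation of the 0 h library would appear at every one of these times.

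Gene groups of the innate response to RNA had small median changes. Of 16 sensors, adaptors, and interferon factors measured, none was past 0.5, and their median was 0.002. RIG-I (DDX58) read 6.58, 6.67, and 6.78 at 0, 6, and 12 h, MDA5 (IFIH1) 7.39, 7.26, and 7.47, PKR (EIF2AK2) 10.91, 11.03, and 10.91, and TLR3 8.96, 8.86, and 8.95. Of 37 interferon-stimulated genes listed, 26 were measured, of which 4 rose and 1 fell, with a median of 0.028. Of all genes 3.08% rose and 3.25% fell, with the higher shares in the lowest 25% given above. Without the lowest 25% of genes the early median was −0.035. The list median was −0.025 at 6 h and 0.075 at 12 h. At 12 h, 22 of the 26 were higher than at 6 h, and 18 with miR-16, against 48.0% and 48.3% of all genes. IFIT1, which binds foreign RNA ends, went from 7.37 to 7.86 and 8.17 (158 reads at 0 h). MX1 (0.83, SE 0.296), IFI44 (0.62, SE 0.291), HERC6 (0.51, SE 0.237), and TRIM22 (−0.63, SE 0.357) had 26 to 47 reads at 0 h. In the NF-kB list of 18 genes, the chemokine CXCL8 went from 6.45 to 5.22 and 5.55, CXCL3 changed by −0.525 at 32 reads, and TNFAIP2 rose from 9.68 to 10.21 at both times.

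The main stress lists had no called member. None of 29 ATF4 targets, 23 endoplasmic reticulum chaperones, 23 heat shock genes, 23 NRF2 targets, or 20 apoptosis genes was past 0.5. The median 0 h levels of these lists ran from 10.09 to 12.62. Of all genes with a mean level above 7.02, only 0.69% rose and 1.46% fell. Few calls or none would thus be usual for lists of this size, and their absence does not set these lists apart. The median of the heat shock list was −0.28 at 6 h and −0.06 at 12 h, and all 23 of its genes were higher at 12 h than at 6 h. HSP90AA1, the stress-inducible cytosolic chaperone, read 17.50, 17.17, and 17.28. Endoplasmic reticulum chaperones went from a median of −0.18 at 6 h to 0.03 at 12 h, 20 of the 23 being higher at 12 h, and HSPA5 (BiP) read 14.87, 14.50, and 15.07. GDF15, which ATF4 drives, read 14.37, 13.87, and 14.75. Of the 24 p53 targets, 1 rose, GADD45A, from 7.90 to 8.46 and 8.77, where 3.08% of all genes rose.

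Lipid genes showed a group of rises. In the list of liver X receptor targets, which export cholesterol and induce lipogenesis, 4 of 8 genes rose and none fell. Of all genes, 3.08% rose and 3.25% fell. The list median was 0.392, with an interval over genes from −0.065 to 0.8. This median was 0.25 at 6 h alone and 0.215 without ABCG1, the member in the lowest 25% of genes. SREBF1, the main factor of fatty acid synthesis, which also stands in the cholesterol list, went from 11.45 to 12.28 and 11.95 and was at 12.38 and 11.77 with miR-16. The cholesterol exporter ABCA1 went from 7.10 to 7.71 and 7.74, ABCG1 from 5.18 to 5.84 and 6.12 (34 reads at 0 h), and MYLIP, which degrades the LDL receptor, from 9.52 to 9.96 and 10.22. The receptors themselves, NR1H2 (0.055) and NR1H3 (−0.065), were not called. Among lipogenic enzymes SCD rose (14.41, 14.85, and 15.04), as did FASN (13.25, 13.94, and 13.61), and so did INSIG1, a sterol-regulated brake on SREBP (9.60, 10.18, and 10.11). The lists they belong to moved little as a whole, with medians of 0.073 for 26 cholesterol genes and 0.068 for 16 fatty acid genes. Of 34 lysosomal genes only the sulphatase SGSH was called (0.53), which is near the 3.08% of all genes that rose.

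Targets of BMP and TGF-beta signalling included 5 falls and no rise among 17 genes, whereas 3.25% of all genes fell and 3.08% rose. The BMP-induced inhibitors of differentiation ID1 (8.88, 8.02, and 8.14), ID3 (10.86, 9.97, and 10.51), and ID4 (11.30, 10.55, and 10.49) fell, as did the inhibitory SMAD6 (9.27, 8.54, and 8.54). PMEPA1 (−0.51) had 25 reads at 0 h and changed sign between the times. ID2, at 10.89, 10.68, and 10.30, missed the limit (−0.40). With miR-16 at 6 h and 12 h, ID1 was at 7.93 and 8.32, ID3 at 10.25 and 10.60, ID4 at 10.62 and 10.84, and SMAD6 at 8.67 and 8.94, all below the 0 h library. The list median was −0.145 with miR-CTR and −0.19 with miR-16.

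Of 21 YAP and TEAD genes, 2 fell, whereas 3.25% of all genes fell and 3.08% rose. CYR61 read 10.55, 10.44, and 9.60 at 0, 6, and 12 h and 6.95 at 48 h, so its fall came after 6 h, like much of that of CTGF. The factors WWTR1 (TAZ, −0.455) and TEAD1 (−0.36) were lower at both times without passing the limit. In the AP-1 list, JUN read 9.02, 8.83, and 8.04, and MAFF (0.565) and ZFP36 (0.565) rose, leaving a list median of 0.005 over 26 genes.

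Several other regulators fell as single members of their lists. CDK6, a G1 kinase, went from 10.96 to 10.28 at both times and was at 10.32 and 10.20 with miR-16. Its 3′UTR held 4 control matches and 2 miR-16 matches. SRSF1, a splicing factor, went from 13.02 to 12.41 and 12.39 (1 control match), FOXO3, a factor of growth factor withdrawal, from 9.91 to 9.45 and 9.26 (3 matches), SLC30A1, the plasma membrane zinc exporter, from 10.05 to 9.47 and 9.28 (2 matches), and NR1D2, a clock repressor, from 9.52 to 8.50 and 8.84 (2 matches). In the miR-16 libraries SRSF1 read 12.72 and 12.86, FOXO3 9.86 and 9.87, SLC30A1 9.53 and 9.52, and NR1D2 9.08 and 9.58, of which SLC30A1 was past 0.5 below 0 h at both times. HTR2B, a Gq-coupled serotonin receptor, went from 10.28 to 9.78 and 9.55, without a match, and C10orf10, which was not matched to the annotation, from 9.74 to 9.22 and 9.05. HIST1H2AC fell from 9.55 to 8.78 and 8.82, and RN7SL2, a 7SL RNA gene, from 8.05 to 7.39 and 7.31, both of which have near-identical copies elsewhere. In a polyA library such RNAs are measured in part only.

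Cell cycle genes were mostly lower at 12 h than at 6 h. All 35 genes of DNA replication were lower at 12 h than at 6 h, by a median of 0.31, the list median going from 0.17 to −0.17. Of 35 mitotic genes, 34 were lower at 12 h, and the list median went from 0.27 to 0.08. The early median of the mitotic list was 0.19, with 28 of 35 genes above 0, and 0.175 with miR-16. None of the 70 was past 0.5 on the mean of the times, where 0.69% of genes with a mean level above 7.02 rose and 1.46% fell. RRM2, a subunit of ribonucleotide reductase, read 12.83, 13.09, and 12.80, PCNA 12.87, 12.99, and 12.67, and CENPF, a kinetochore protein, 13.06, 13.54, and 13.31. In the separate miR-16 libraries, 35 of 35 and 31 of 35 genes of these lists were lower at 12 h. For all genes, 49.3% were lower at 12 h than at 6 h with miR-CTR. Ribosome biogenesis genes were lower at 12 h in 27 of 33.

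Transcripts of mitochondrial DNA went the other way. All 15 were higher at 12 h than at 6 h with miR-CTR, and the list median was 0.13 at 6 h and 0.38 at 12 h, while nuclear respiratory chain genes had a median of 0.02. MT-RNR2 read 16.37, 16.46, and 16.82, and MT-CO2 16.47, 16.67, and 16.85. With miR-16, 8 of the 15 were lower and 7 higher at 12 h. The share of reads from mitochondrial DNA was 3.04%, 3.32%, and 3.85% in the untransfected library and those of miR-CTR at 6 h and 12 h. This share is summed from the mitochondrial transcripts themselves, so it is not a separate measure of them.

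**Figure D4:**
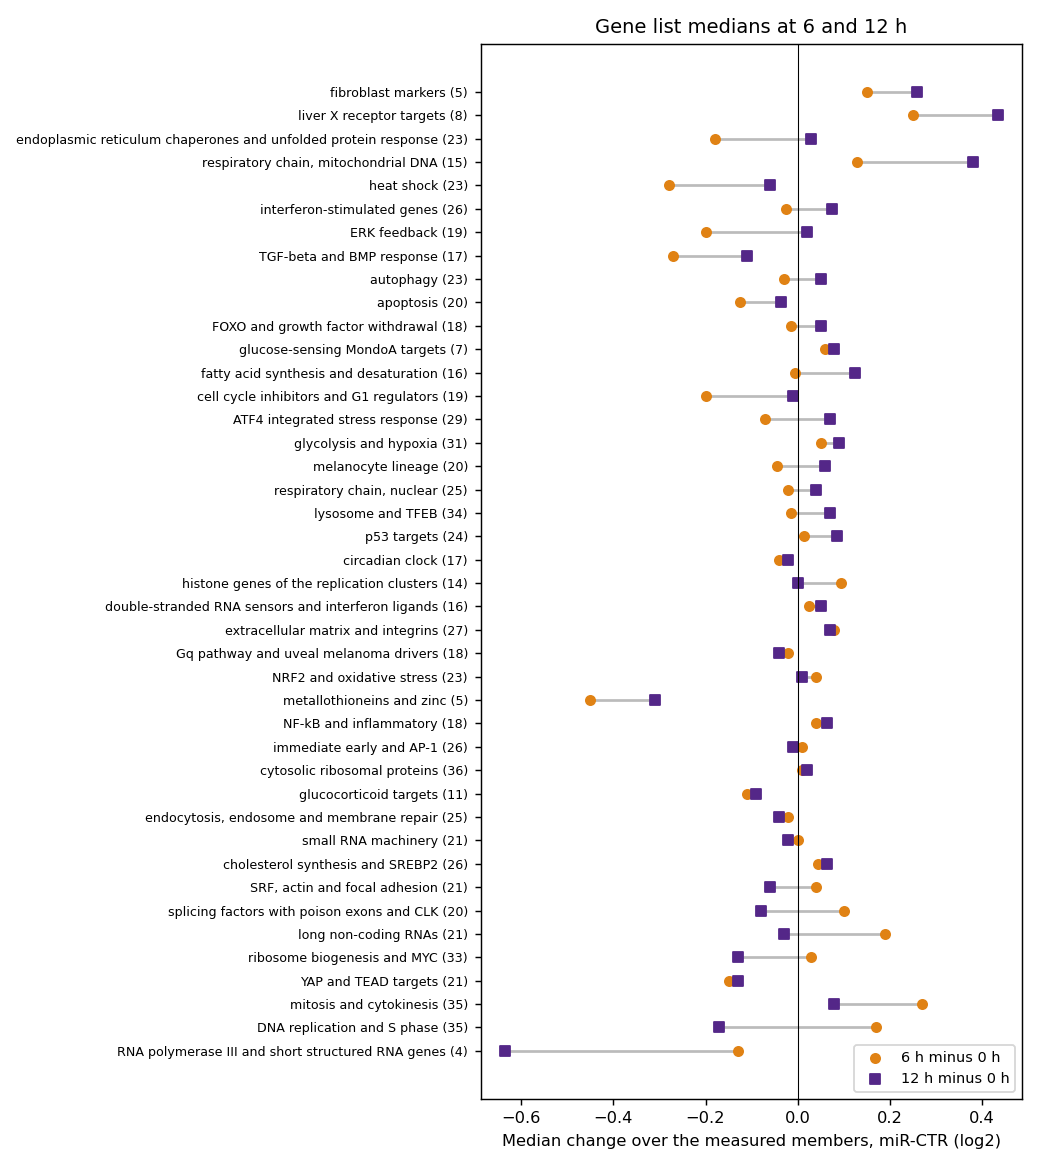
Median change from untransfected cells (log2) over the measured members of each gene list with at least 4 such genes, at 6 h (circles) and 12 h (squares) of miR-CTR, with the number of genes in parentheses, ordered by the median difference between the times. Replication genes cross from 0.17 to −0.17, heat shock genes go from −0.28 to −0.06, and liver X receptor targets are highest at 12 h.

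Melanocyte genes held their level. Of 20, TRPM1, a cation channel gene that MITF regulates, was the only call, where 3.08% of all genes rose. TRPM1 went from 9.49 to 10.10 and 10.06 and on to 11.58 at 48 h. MITF read 13.28, 13.20, and 13.27, and TYRP1, the highest of them, 17.88, 17.77, and 17.75. Cytosolic ribosomal protein genes, taken as a chosen list of 36 that were all measured, had a median of 0.012 and no member past 0.14 in size.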

How the data were processed

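RNA-seq of polyA RNA from MP41 cells gave 9 libraries, 1 per mimic and time. Per the submitters' processing notes, reads were handled with FastQC, STAR 2.4.0a, and featureCounts of Subread 1.5.0-p3 on hg38/GRCh38. The deposited log2 values, made by the authors as log2(reads/size factor + 1) with 2 decimals, were used as they stand. Columns T4 and T5 were taken as 24 h and 48 h because their numbers rise with time.

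Whole reads were recovered from the spacing of low values (linear values up to 15, tolerance 0.1 reads; 100% came out whole) and gave counting SEs. There is 1 library per condition, so no test was made. Intervals of medians are 95% binomial order-statistic intervals over genes and describe spread among genes, not replicate error.

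Of the symbols, 12991 (87.55%) matched GENCODE 29. Structural medians use genes above the lowest 25% of mean level, since under 80% of all called genes matched. The named genes were the 12 largest changes each way past the limit at both times, and the 5 largest moves each way between 6 h and 12 h, among genes above the lowest 25% of mean level, called members of each list (up to 6, otherwise 3 of the highest), and 2 genes on each side of the limit; not all are printed. Members and lists were chosen with earlier results of these data known. The steps were tested on simulated data. Python 3.11.15, pandas 2.3.3, and numpy 2.4.6 were used.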

Additional observations from a re-analysis of the deposited data

Results flagged for a closer look

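IFI44, an interferon-stimulated gene, changed by 0.62 with miR-CTR (0.48 at 6 h and 0.76 at 12 h) and by −0.315 with miR-16 (−0.50 and −0.13), so the libraries of the 2 mimics moved in opposite directions from the shared 0 h library. It had 30 reads at 0 h, and the difference was not tested. CAV2, a caveolar protein with 2 8mer matches to the control seed, changed by −0.55 with miR-CTR (−0.46 and −0.64) and by 0.12 with miR-16 (0.05 and 0.19), and this difference was not tested either.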

How the results depend on the processing

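The counts of 457 rises and 483 falls depended most on the limit and on low genes. They were 49 and 33 at a 2-fold limit, 240 and 243 with the limit passed at both times, 77 and 162 without the lowest 25% of genes, and 170 and 265 with a pseudocount of 16, and 282 rises had a 95% counting interval that excluded 0. At 1.5-fold, at 6 h or 12 h alone, and under quantile normalization or centring on the median gene they stayed within 1.5 times. With 8mer sites alone the median early change was −0.115 for the control seed and −0.015 for the miR-16 seed. Taken at 12 h alone, 7 of 44 list medians turned sign, among them endoplasmic reticulum chaperones (0.03), long non-coding RNAs (−0.03), and DNA replication (−0.17), as did 10 of 124 named genes, of which FSTL1 (0.10) and PMEPA1 (0.09) had been called; the cause was not tested. At 6 h alone 11 list medians and 8 named genes turned, none of them called. Quantile normalization turned the list median of ATF4 targets, from −0.015 to 0.001, and 6 named genes at most 0.045 in size, and centring turned that of endocytosis, from −0.005 to 0.005, and no named gene. Without the lowest 25%, 2 of 43 list medians turned, those of the RNA sensors (−0.003) and of interferon-stimulated genes (−0.035). No paired analysis was possible because each group has 1 library and the result comes from no test. Single libraries leave the spread between cultures unknown.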
